A study of Anopheles gambiae with 6 samples.

Results

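This report describes 166 Anopheles probe sets that were bright in whole larvae and much dimmer in the larval salivary gland, out of 16884 Anopheles probe sets on the array. They were chosen by the measured gland and whole-larva values themselves. The mean of 3 gland arrays had to lie at least 4 below the mean of 3 whole-larva arrays on the log2 scale, a 16-fold difference, with every gland array below every whole-larva array. The second condition removed nothing, because all 166 probe sets at or below -4 met it. RNA came from fourth-instar Anopheles gambiae larvae of the G3 strain, reared on yeast and fish food. Each gland array carried RNA from the glands of 50 larvae, dissected in ethanol and kept cold in it, and each whole-larva array carried RNA from 200 whole larvae, whose own handling the labels do not describe. Whole larvae contain their glands, so a part of the animal was set against all of it. No treatment or mutant was involved, and each pool was hybridised to 1 array, so the number of arrays limits the precision.

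The larval salivary gland is a paired secretory organ that opens near the mouth and is replaced by the adult gland at metamorphosis. A whole larva also contains gut, fat body, muscle, epidermis and cuticle-forming tissue, trachea, blood cells and nervous system, and transcripts made mainly in those tissues are sparse in a cleanly dissected gland. Neither the deposited table nor the gene table used here names the gene behind an Anopheles identifier (0 of 16884 matched), so the members are given by identifier, without gene role, sequence or position. For the same reason the dissected gland could not be checked against gland, gut or fat body markers, and what surrounding tissue adds to the gland values was not tested. In such bulk RNA, fewer cells of a type and less RNA per cell cannot be told apart.

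An identifier such as Ag.2R.3186.0_CDS_at names a chromosome arm, a number on that arm, a variant, and whether the probes were drawn from coding sequence or UTR. The ending _a_at is the maker's mark for probes shared by variants of 1 gene, and _s_at marks probes shared by transcripts of different genes. Values are deposited log2 RMA values throughout. Brightness depends on the probes as well as on the transcript, so an order of brightness between probe sets is not an order of transcript abundance.

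In whole larvae the members were among the brightest probe sets on the array, while in gland they ran from percentile 3.67 to percentile 96.1. Their median was 5.69 in gland (interquartile range 5.19 to 6.49) and 10.98 in whole larvae (10.02 to 11.68). Ranked among all Anopheles probe sets, the median member stood at the 44.9th percentile in gland and at the 97.9th percentile in whole larvae. Of the 500 brightest probe sets in whole larvae, 112 were members (22.4%), and of the 100 brightest 10 were. The dimmest member in whole larvae, Ag.3R.785.0_CDS_at, still stood at the 87.9th percentile. The median difference of the members was -4.90 (range -7.66 to -4.01), against a median of 0.068 over all Anopheles probe sets. This difference was selected on, so it is a description and carries no test. The rule also favours probe sets that are bright in whole larvae, so their high rank there is partly set by it.

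**Figure D1:**
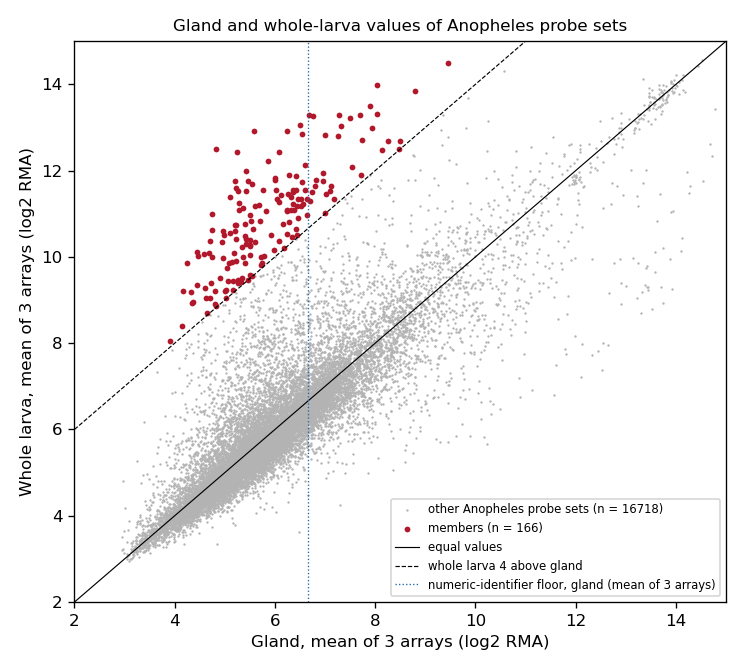
Mean log2 RMA value of each Anopheles probe set in gland (horizontal) and whole larva (vertical), 3 arrays each, with the 166 members in red and the dashed line at the limit of the rule. Members span 3.90 to 9.46 in gland and 8.04 to 14.49 in whole larvae, and 23 of them exceed the floor on all 3 gland arrays.

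Whether the members can be called nearly absent from gland depends on the floor used, so they are described here by the rule alone. The 95th percentile of 290 probe sets with purely numeric identifiers, of unstated target, served as a floor on each array (mean ± SD over 3 arrays each, 6.65 ± 0.036 for gland and 6.02 ± 0.075 for whole larvae). All 166 members exceeded it on all 3 whole-larva arrays. In gland 113 members (68.1%) lay at or under it on all 3 arrays, 30 exceeded it on 1 or 2 arrays, and 23 exceeded it on all 3. Over all Anopheles probe sets 68.5% lay under the floor on all 3 gland arrays and 23.8% exceeded it on all 3. The share under the floor in gland was thus close to that over the array, and it is no result about the members. A lower floor, set the same way by 4502 Plasmodium probe sets, was exceeded on all 3 gland arrays by 159 members, and 1 member lay at or under it on all 3. Where a gland value is under the numeric floor the fold is only a bound, obtained by raising the gland value to the floor.

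The 4 members with the most negative measured differences were under the floor on all gland arrays. Ag.2R.3186.0_CDS_at read 4.92, 4.87 and 4.69 on gland arrays 1, 2 and 3, and 12.07, 12.36 and 13.04 on whole-larva arrays 1, 2 and 3. The measured difference was -7.66 (SE 0.28), and the fold of whole larvae over gland was at least 57.3. Ag.3R.837.0_CDS_at read 5.25, 5.78 and 5.74 in gland and 12.84, 12.85 and 13.08 in whole larvae, a difference of -7.34 (SE 0.23), with a fold of at least 77.3. The whole-larva arrays of Ag.3R.837.0_CDS_at spanned 0.24 and those of Ag.2R.3186.0_CDS_at 0.97, and in both the groups lay far apart.

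Ag.2R.18.0_CDS_at read 5.10, 5.46 and 5.16 in gland, against 13.09, 12.07 and 12.12 in whole larvae (difference -7.19, SE 0.31, at least 54.8-fold brighter in whole larvae). Ag.3L.1558.0_CDS_at read 6.23, 6.22 and 6.29 in gland, against 11.89, 13.28 and 13.56 in whole larvae (difference -6.66, SE 0.42, at least 76.6-fold). The order of these 4 by bound differs from the order by measured difference. Over all members the measured fold reached 32 for 76 and 64 for 19. With gland values raised to the floor, 92 of the 166 kept a 16-fold difference, 31 kept 32-fold and 6 kept 64-fold. The lowest bound was 2.62-fold, in Ag.3R.785.0_CDS_at, which read 4.00, 3.82 and 3.89 in gland and 7.13, 8.69 and 8.31 in whole larvae.

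The brightest members had a readable gland signal. Ag.2R.1237.0_CDS_at, the second brightest of all Anopheles probe sets in whole larvae, read 10.01, 9.24 and 9.14 in gland and 14.20, 14.46 and 14.81 in whole larvae. Its gland mean of 9.46 stood at percentile 96.1 of gland values, so this probe set was bright in gland as well, at a measured fold of 32.6 in favour of whole larvae (difference -5.03, SE 0.29). Ag.2L.130.0_CDS_s_at read 8.14, 8.11 and 7.86 in gland and 13.43, 14.04 and 14.51 in whole larvae, a difference of -5.96 (SE 0.30), or 62.2-fold.

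Ag.2L.2454.0_CDS_at read 7.84, 8.02 and 7.84 in gland, against 13.61, 13.23 and 13.68 in whole larvae (difference -5.60, SE 0.21). Ag.2R.2138.0_CDS_a_at read 7.93, 7.88 and 7.29 in gland, against 12.66, 13.57 and 13.65 in whole larvae (difference -5.59, SE 0.33). Ag.2L.161.0_CDS_at, the third brightest member in gland, read 8.49, 8.31 and 8.70 there and 12.28, 13.22 and 12.57 in whole larvae. The 23 members above the floor on all gland arrays came from 19 identifier numbers and had measured differences of -6.00 to -4.02, or 16.2-fold to 63.9-fold, with a median of 31.4-fold. The 113 under the floor had a median measured difference of -4.90 but a median bound of only 13.2-fold.

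At the dim end of the gland scale, Ag.3R.191.2_CDS_a_at read 4.18, 3.99 and 4.26 in gland and 7.49, 8.54 and 9.15 in whole larvae. Ag.2R.3622.1_a_at read 4.11, 4.31 and 4.07 in gland and 7.23, 10.88 and 9.53 in whole larvae. Gland arrays lay close together in both, while the whole-larva arrays of the second spanned 3.65. Across members, gland and whole-larva means went together (Pearson's r = 0.80, Spearman's rho = 0.77, over 166 probe sets that share the same 6 arrays). The limit of the rule caps the gland mean at 4 below the whole-larva mean, which by itself ties the means, and r over all 16884 probe sets was 0.84.

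**Figure D2:**
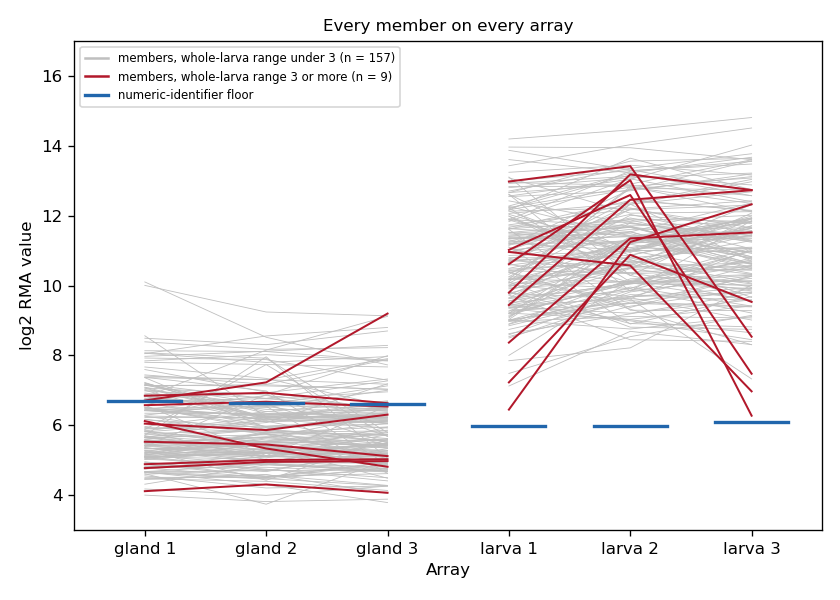
log2 RMA value of each of the 166 members on the 3 gland and 3 whole-larva arrays, 1 line per member and group (lines join the same member and imply no order of arrays). Blue bars mark the numeric-identifier floor of each array, and the 9 red members span 3 or more between whole-larva arrays.

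The rule used group means and the absence of overlap, not how far the 3 arrays of a group lay apart. The median SD of a member was 0.218 over gland arrays and 0.557 over whole-larva arrays, a ratio of 2.56, and over all Anopheles probe sets these medians were 0.146 and 0.262, a ratio of 1.80. Whole-larva arrays spread more than gland arrays in 77.7% of members and in 74.6% of all Anopheles probe sets. Brightness also differs between members and the rest. Within the interquartile range of the members' whole-larva brightness, the median whole-larva SD was 0.583 for 82 members and 0.378 for 272 other probe sets. Their median gland SDs were 0.236 for members and 0.251 for the others, but the band matches whole-larva brightness only: the median gland value was 5.87 for members, under the floor, and 10.01 for the others. These are descriptions of 3 arrays a group, and no test was made of them.

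Whole-larva array 1 was the lowest of its group for 100 members (60.2%), against 30.2% of all Anopheles probe sets. In the brightness band just given it was lowest for 54.9% of members and 43.4% of the others. The median over members was 10.67 on array 1, 11.06 on array 2 and 11.07 on array 3, while that of all Anopheles probe sets was 5.91, 5.88 and 5.82. Array 3 was the highest for 75 members, array 2 for 55 and array 1 for 36. Each pool had 1 array, so pool and array cannot be told apart.

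Gaps of 2 or more between whole-larva arrays were seen in a minority of members. The whole-larva arrays spanned 1 or more in 89 members (53.6%), 2 or more in 30 (18.1%) and 3 or more in 9 (5.42%). Over all Anopheles probe sets these shares were 15.8%, 2.81% and 0.912%. In the brightness band they were 52.4%, 18.3% and 4.88% of the 82 members, and 30.9%, 8.46% and 5.15% of the 272 others. Spans of 3 or more were thus not more frequent among members of the band. In 5 of the 9 members with such a span array 1 was the low one, and in 4 it was array 3.

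Ag.3R.2054.0_CDS_s_at had the widest spread, with 4.89, 5.01 and 5.03 in gland and 10.61, 13.02 and 6.28 in whole larvae. Its lowest whole-larva array stood 1.25 above its highest gland array. Ag.2L.2524.0_CDS_at read 5.53, 5.45 and 5.12 in gland and 6.45, 11.25 and 12.33 in whole larvae, so here array 1 was the one near gland level. Ag.2R.1251.0_CDS_s_at read 6.85, 6.93 and 6.63 in gland and 12.98, 13.42 and 8.54 in whole larvae. In each of these 3 probe sets 1 whole-larva array stood far below the other 2.

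Ag.2L.872.0_UTR_a_at and Ag.2R.442.0_UTR_at were also low on array 3 alone. The first read 4.77, 4.95 and 4.98 in gland and 10.96, 10.58 and 6.97 in whole larvae. The second read 6.05, 5.86 and 6.31 in gland and 11.02, 12.60 and 7.48 in whole larvae. Low on array 1 alone were Ag.2R.1440.0_CDS_at (8.37, 11.35 and 11.52 in whole larvae), Ag.2R.904.0_CDS_s_at (9.44, 12.46 and 12.73), Ag.X.4.0_CDS_at (9.80, 13.19 and 12.74) and Ag.2R.3622.1_a_at, given above. These 9 members lay on 4 arms, 2L, 2R, 3R and X.

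At the other extreme, Ag.3L.944.0_CDS_at read 5.10, 5.03 and 4.92 in gland and 8.98, 9.11 and 9.07 in whole larvae, where its SD was 0.070. Ag.3R.186.0_CDS_a_at read 4.65, 4.47 and 4.27 in gland and 9.93, 10.12 and 10.01 in whole larvae. Ag.3R.786.0_CDS_at read 5.75, 5.54 and 5.42 in gland and 10.73, 10.53 and 10.66 in whole larvae. The whole-larva arrays of these 3 lay close together, with array 1 the lowest in Ag.3L.944.0_CDS_at and Ag.3R.186.0_CDS_a_at and array 2 in Ag.3R.786.0_CDS_at.

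**Figure D3:**
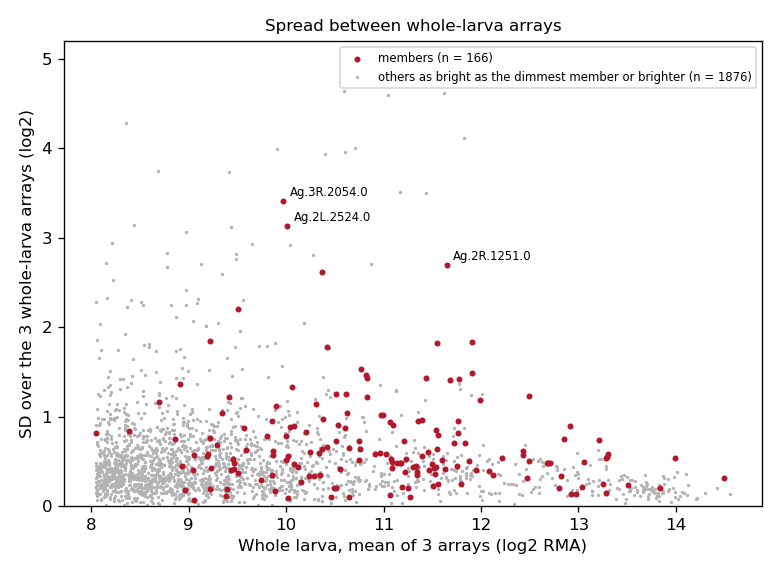
SD over the 3 whole-larva arrays (log2) against their mean (log2 RMA), for the 166 members in red and the 1876 other Anopheles probe sets as bright as the dimmest member or brighter in grey. Most members lie under an SD of 1, and the 3 labelled ones have SDs of 3.42, 3.13 and 2.70.

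In a limma fit over all Anopheles probe sets, 160 of the 166 members were called lower in gland at an adjusted p under 0.01 and at least 2-fold, where 4.99% of all probe sets were called. The rule used the same contrast, so the count says nothing further about the members. The rule itself takes 0.983% of the probe sets. The 6 members not called were Ag.3R.2054.0_CDS_s_at, Ag.2L.2524.0_CDS_at, Ag.2R.1251.0_CDS_s_at, Ag.2R.442.0_UTR_at, Ag.X.4.0_CDS_at and Ag.2L.872.0_UTR_a_at. All 6 were among the 9 whose whole-larva arrays spanned 3 or more.

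Gland arrays differed by 2 or more in 10 members, from 8 identifier numbers (6.02%, against 0.415% of all Anopheles probe sets). In the band of like whole-larva brightness the share was 4.88% of members and 6.62% of the others. That band does not match gland brightness, with median gland values of 5.87 for its members and 10.01 for the others. It therefore cannot tell how frequent wide gland gaps are at like gland brightness. The median gland mean was 5.69 for all members and 5.84 over all Anopheles probe sets. Gland array 1 was the highest in 6 of the 10 members, array 2 in 2 and array 3 in 2. All 3 probe sets of Ag.2L.1532 had the same pattern. Ag.2L.1532.0_CDS_at read 8.08, 7.92 and 5.79 in gland and 12.95, 12.87 and 12.58 in whole larvae. Ag.2L.1532.1_at read 6.92, 6.54 and 4.62 in gland and 11.71, 11.68 and 11.27 in whole larvae. Gland array 3 was thus well below the other gland arrays in both, while the whole-larva arrays lay close together.

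Ag.2L.1725.0_CDS_at read 10.11, 8.52 and 7.73 in gland, against 13.97, 13.95 and 13.61 in whole larvae. Ag.2R.3537.0_CDS_at, at 7.36, 5.93 and 4.82 in gland and 11.63, 11.43 and 10.96 in whole larvae, kept the same order of gland arrays. Ag.3L.1901.0_CDS_at was high on gland array 1 alone, at 8.56, 6.24 and 6.06, with 12.61, 10.98 and 11.71 in whole larvae. Other members differed in which array was high. Ag.3L.687.0_CDS_at (5.72, 7.96 and 5.06) and Ag.UNKN.1449.0_CDS_at (5.88, 7.74 and 5.68) were high on gland array 2 alone, and Ag.3R.282.1_a_at (6.81, 8.15 and 9.12) and Ag.X.4.0_CDS_at (6.71, 7.23 and 9.20) were highest on gland array 3. The gland array with the highest residual signal was thus not the same for all 10 members.

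The members were described next by features that the rule did not use. Of the 166, 62 were on arm 2R (37.3%, against 26.3% of all Anopheles probe sets), 35 on 2L (21.1%, against 20.3%), 31 on 3R (18.7%, against 18.8%), 27 on 3L (16.3%, against 14.8%) and 3 on X (1.81%, against 8.31%). A further 8 named no placed arm (4.82%, against 11.5%). The 62 on 2R include 8 probe sets of the single number Ag.2R.8. Coding probe sets made up 85.5% of members and 83.3% of all, and UTR probe sets 6.63% and 4.68%. The suffix _a_at was on 25.3% of members and 19.7% of all, and _s_at on 12.0% and 8.14%. A variant other than 0 was named by 15.1% of members and 10.3% of all. Probe sets that share a number are not independent, so these shares are given without a test.

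The 166 members fell on 147 identifier numbers, of which 10 carried several members, 29 probe sets in all. The sources used here do not say whether a number stands for 1 gene, but its probe sets measure the same RNA on the same arrays and are not replicates. Ag.2R.8 carried 8 members, the variants 0 to 7 with the suffix _a_at. Their differences lay between -4.87 and -4.60, their gland means between 6.25 and 6.70 and their whole-larva means between 11.09 and 11.35. Ag.2R.8.2_CDS_a_at, with the most negative difference of them, read 7.09, 6.25 and 6.06 in gland and 11.50, 11.68 and 10.83 in whole larvae. All 8 had the highest gland value on array 1, the highest whole-larva value on array 2 and the lowest on array 3. The number also held Ag.2R.8.0_CDS_s_at, which was brighter in both groups and missed the limit. It read 10.04, 9.77 and 9.72 in gland and 13.43, 14.09 and 13.54 in whole larvae (difference -3.84, SE 0.23). Its lowest whole-larva value was on array 1.

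Ag.3R.162 carried 4 members at very different brightness. Ag.3R.162.3_CDS_a_at read 7.80, 7.74 and 7.67 in gland and 12.21, 13.17 and 12.75 in whole larvae (difference -4.97). Ag.3R.162.34_UTR_a_at read 4.67, 4.51 and 4.96 in gland and 8.50, 9.65 and 9.02 in whole larvae. It was under the floor on all gland arrays, so its fold is only a bound, at least 5.30. The remaining members of that number, Ag.3R.162.54_UTR_a_at and Ag.3R.162.0_CDS_a_at, had measured differences of -4.34 and -4.31. Gland means of these 4 ran from 4.71 to 8.13, and 2 lay above the floor on all gland arrays. Ag.3R.162.0_UTR_a_at, on the same number but not a member, was brighter than all 4 in both groups by mean. It read 9.59, 9.41 and 9.33 in gland and 12.93, 13.12 and 12.28 in whole larvae (difference -3.33, SE 0.26).

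Both members of a number were above the floor on all gland arrays in some pairs and not in others. Ag.3R.169.0_CDS_s_at read 7.23, 6.14 and 6.67 in gland and 13.25, 13.45 and 13.17 in whole larvae, at least 86.9-fold brighter in whole larvae. Ag.3R.169.0_UTR_s_at read 4.61, 3.74 and 5.01 in gland and 9.78, 10.61 and 9.95 in whole larvae, at least 11.1-fold brighter there. The gland value was under the floor on all arrays in the UTR probe set and on 1 array in the coding one, so the sizes of these differences cannot be compared. On Ag.2L.130, where both were above the floor, the difference was -5.96 for the _s_at probe set and -4.02 for Ag.2L.130.0_CDS_at, which read 8.05, 8.56 and 8.80 in gland and 11.16, 12.75 and 13.58 in whole larvae. The pairs on Ag.2L.990 (-4.46 and -4.54) and Ag.2R.300 (-4.98 and -4.43) lay closer together. Each of these numbers also held a probe set that was not a member. Ag.2L.990.0_CDS_s_at differed by only -0.14, with overlapping groups, and Ag.2R.300.0_UTR_a_at by -3.74. In 8 of the 10 numbers with several members, all of them had their highest whole-larva value on the same array. The exceptions were Ag.2R.46 and Ag.3R.162, and no share over all numbers with several probe sets was computed.

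On 21 of the 147 numbers the array also held probe sets that were not members, 28 in all. These were not selected by the rule, though they come from the same arrays. Many of them end in _a_at or _s_at, the marks of shared probes. The median difference of the 28 was -2.42, against 0.068 over all Anopheles probe sets. Of the 28, 17 (60.7%) were called lower in gland by limma, where 4.99% of all probe sets were. In 22 (78.6%) every gland array lay below every whole-larva array, against 17.7% of all Anopheles probe sets. In 4 the difference was above 0, and all 4 ended in plain _at. Other plain _at probe sets were lower in gland, such as Ag.2L.508.0_CDS_at at -3.02. The shares were not split by suffix, and what shared probes add to them was not tested.

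Several of the 28 repeated the array pattern of their member. Ag.2R.442.1_CDS_s_at read 5.35, 5.51 and 5.73 in gland and 10.50, 9.63 and 6.48 in whole larvae, low on whole-larva array 3 like Ag.2R.442.0_UTR_at. Ag.2L.918.0_CDS_a_at read 5.74, 5.30 and 5.97 in gland and 11.43, 7.89 and 7.81 in whole larvae. Its member Ag.2L.918.0_UTR_a_at read 4.51, 4.51 and 4.73 in gland and 11.61, 9.30 and 9.28 in whole larvae, so array 1 was high in both. In 19 of the 28 the highest whole-larva array was the same as in the first listed member of the number. No share over other probe sets that share a number was computed beside this count.

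Others did not. Ag.2R.3034.1_CDS_at had every gland array above every whole-larva array, at 8.47, 8.76 and 10.55 there and 6.93, 6.83 and 6.51 in whole larvae (SE of the difference 0.51), whereas the member Ag.2R.3034.0_CDS_at read 7.07, 6.87 and 7.99 in gland and 12.81, 13.09 and 13.22 in whole larvae (difference -5.73, SE 0.32). Gland array 3 was the highest gland array in both. On Ag.3R.347 the members differed by -4.59 and -4.03 and Ag.3R.347.3_a_at by -3.99, just short of the limit, while Ag.3R.347.2_CDS_at (0.16) and Ag.3R.347.1_CDS_at (0.46) lay above 0. The first of these last 2 was under the floor on all 6 arrays, and the second read 7.91, 8.06 and 8.18 in gland and 7.72, 7.14 and 7.91 in whole larvae.

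Ag.UNKN.848.0_CDS_at read 6.56, 6.98 and 6.51 in gland and 6.68, 6.06 and 6.52 in whole larvae, beside its _s_at member at 8.06, 7.80 and 7.97 in gland and 12.93, 13.13 and 12.88 in whole larvae. Ag.2R.18.1_UTR_a_at, on the same number as the member Ag.2R.18.0_CDS_at, was under the floor on all 6 arrays and differed by -0.31. On Ag.2R.450 the variants disagreed in pattern: the member Ag.2R.450.4_at read 11.89, 11.71 and 10.76 in whole larvae, lowest on array 3. Ag.2R.450.1_at read 7.18, 6.78 and 7.03 in gland and 7.15, 9.16 and 9.81 in whole larvae, lowest on array 1.

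**Figure D4:**
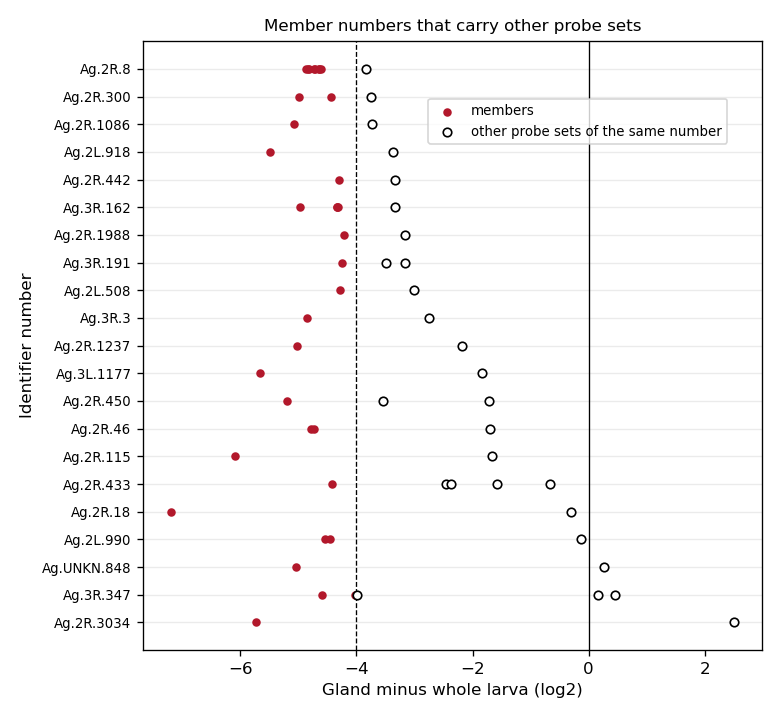
Gland minus whole-larva difference (log2) of members (red) and other probe sets (open) on the 21 identifier numbers that hold both. The lowest open point lies at -3.99, and 4 of 28 are above 0.

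Members also stood at neighbouring identifier numbers. Of the 147 numbers with a member, 29 (19.7%) had a member at an adjacent number on the same arm, against 1.67% of the 14759 numbers without one. Within 5 numbers the shares were 25.2% and 8.02%. Numbers up to 5 apart formed 17 groups, 14 of 2 numbers and 3 of 3, and each of the arms 2L, 2R, 3L and 3R had at least 1. The sources used here do not say whether the numbers follow the genome.

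The brightest group of 3 was on arm 3L at numbers 1558, 1559 and 1560. Ag.3L.1558.0_CDS_at was given above. Ag.3L.1559.1_a_at read 6.29, 6.68 and 6.41 in gland and 10.47, 10.70 and 11.57 in whole larvae (difference -4.45, SE 0.32). Ag.3L.1560.0_CDS_at read 5.94, 5.80 and 5.84 in gland and 11.62, 12.33 and 12.69 in whole larvae (difference -6.35, SE 0.30). All 3 were lowest on whole-larva array 1 and highest on array 3.

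The other groups of 3 were named after their values were seen. On 2R they were Ag.2R.3707.1_a_at, Ag.2R.3711.0_at and Ag.2R.3712.0_at, with differences of -6.32, -5.13 and -4.01. Whole-larva values were 12.17, 13.65 and 12.75 for the first and 12.14, 10.87 and 11.64 for the second, so the array that was highest in the first was lowest in the second. Among unplaced numbers they were Ag.UNKN.67.0_CDS_s_at, Ag.UNKN.68.0_CDS_at and Ag.UNKN.73.0_CDS_s_at, with differences of -4.15, -4.27 and -4.59.

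Of 15 pairs of members at consecutive numbers, 9 (60.0%) had their highest whole-larva value on the same array, against 35.5% of 13430 consecutive pairs over all Anopheles numbers, each number represented by its brightest probe set. The lowest whole-larva value was on the same array in only 7 of the 15. No share over all numbers was computed for the lowest array, and array 1 was lowest for 60.2% of members. Ag.2L.772.0_CDS_at and Ag.2L.773.0_CDS_at were a pair with the same highest array, at 12.17, 12.75 and 13.12 and at 9.11, 10.87 and 11.54 in whole larvae. Ag.2R.2847.0_CDS_at and Ag.2R.2848.0_CDS_at were the opposite kind, at 10.19, 12.79 and 12.74 and at 12.61, 9.84 and 11.86. Those last members differed by only 0.47 in mean whole-larva brightness. Consecutive members differed in mean brightness by 0.21 to 3.43, with a median of 1.51.

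Other probe sets beside the members were near the background. Among 298 probe sets at the number next to a member's, on numbers with no member, the median difference was -0.0076, 14 (4.70%) were called lower in gland against 4.99% of all, and 64 (21.5%) lay below whole larvae on every array against 17.7% of all. The shares of all include the 166 members, 160 of them called, whereas the 298 hold none, so the sets are not quite alike. Over all 13430 consecutive pairs the differences of both numbers correlated weakly (Pearson's r = 0.11, over numbers that share arrays and, possibly, probes).

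**Figure D5:**
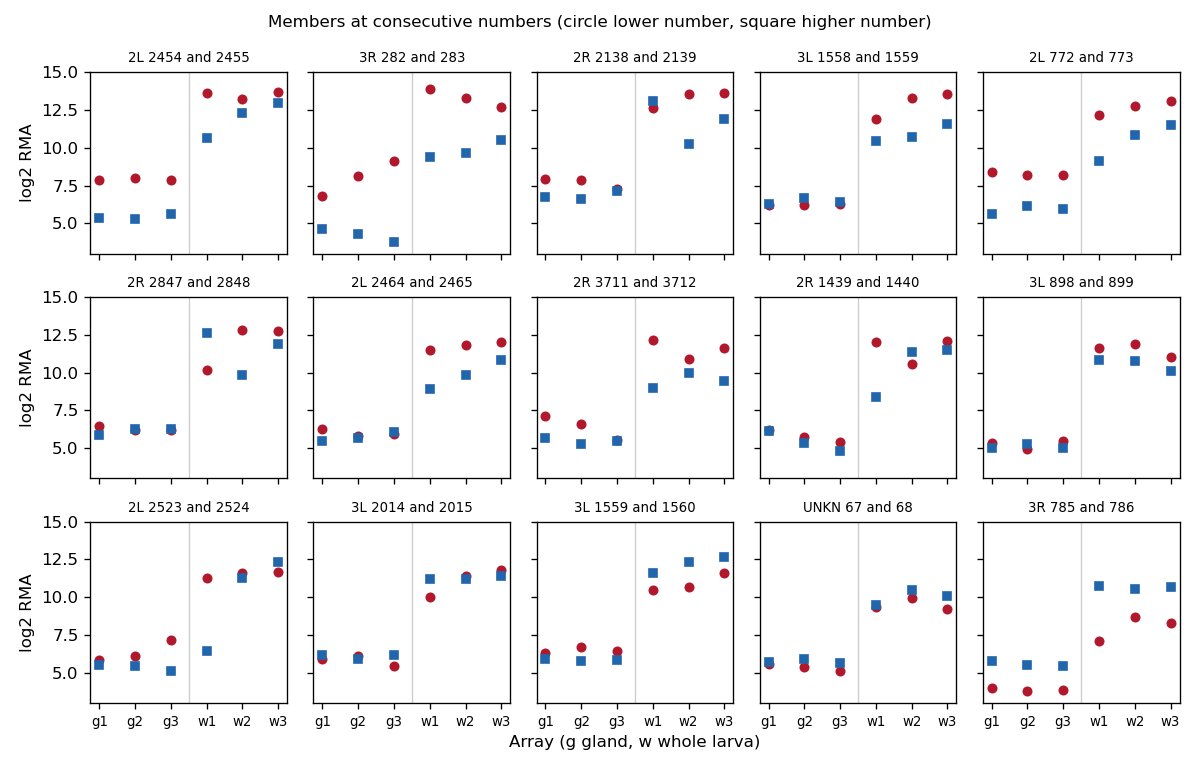
log2 RMA values on the 3 gland (g) and 3 whole-larva (w) arrays for the 15 pairs of members at consecutive numbers, circles for the lower and squares for the higher number. In 9 of 15 pairs both members are highest on the same whole-larva array, and in 7 both are lowest on the same one.

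The limit of -4 fell in a continuous range. Just inside it were Ag.2R.1108.0_CDS_at (-4.02), Ag.2R.1840.0_CDS_at (-4.01) and Ag.2R.3712.0_at (-4.01). Just outside were Ag.2L.1467.0_CDS_at (-3.999), Ag.UNKN.1303.1_CDS_s_at (-3.99) and Ag.3R.347.3_a_at (-3.99). Among the 5877 rows of the table that are not of Anopheles form, 0 met the rule, and the most negative difference there was -3.65.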

How the data were processed

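Values are the deposited log2 RMA values of 6 Affymetrix arrays (22761 rows, range 2.46 to 14.9). RMA is named in the submitters' processing notes, without version or settings; a joint normalization of the 6 arrays is not stated there. Per the labels' protocols, total RNA was amplified by in vitro transcription and biotin-labelled. The log2 scale was taken from the range and from the name RMA. No detection calls were used.

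Members were found among rows starting with Ag., and the members and lists were chosen with earlier results of these data known. Identifiers were named by a fixed rule: the highest and lowest in brightness, difference and spread, the largest groups, pairs on 1 number, and those nearest the limit. The groups of 3 numbers on 2R and among unplaced numbers, the members with wide gaps between arrays and the non-members on shared numbers were singled out after their values were seen. SEs and background calls came from limma 3.58.1 in R 4.3.3 (lmFit, eBayes with trend, group as the only term, Benjamini-Hochberg adjustment over 16884 probe sets), tested on simulated data. Labels call the pools biological repeats. The 12 gene lists could not be applied (0 tested), since 0 of 16884 identifiers matched a table of 15165 genes. No pair of arrays was identical (0 pairs).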

Additional observations from a re-analysis of the deposited data

How the results depend on the processing

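Without a replicate, in turn, the rule gave 162 to 177 members, the members' median difference was -5.01 to -4.81, 110 to 128 members lay under the floor in gland, 25 to 32 had a member at an adjacent number, and limma called 410 to 1044 probe sets lower in gland against 843 with all arrays (410 without gland replicate 2, 452 without 3, 472 without 1). Limits of -3 and -5 gave 332 and 76 members, of which 222 and 54 lay under the floor and 56 and 10 had a member at an adjacent number. Raising values to the floor left 92 members and a median difference of -4.18. Centring on the numeric-identifier median moved that median to -5.32 and the limma count to 1583 lower (207 higher, against 403). With this centring the rule gave 228 members, including all 166. Of the 228, 157 lay under the floor, centred likewise, and 40 had a member at an adjacent number. Quantile normalization applied again gave 821 lower and 674 higher and left 141 of the 166 members. With the Plasmodium floor 1 member lay under it. The methods' t-test called 97 lower after adjustment and 855 at an unadjusted p under 0.01, a setting added after the data were seen, and limma called 1304 at an adjusted p under 0.05. The replicate block gave 698 lower. Deviations of same-numbered gland and whole-larva arrays from their group means correlated at 0.10, -0.087 and -0.0022. With 3 arrays a group and different RNA sources, these values cannot tell whether same-numbered arrays were paired. Leaving out the 9 members with the widest whole-larva ranges gave -4.90 over 157, and 1 value per identifier number gave -4.99, both also added later. The other alternatives kept the counts within 1.5 times and the median within the spread of array medians. The cause of these shifts was not tested. Signal over background limits the folds of the 113 members under the floor on all gland arrays. It also limits those of the 30 members above it on only 1 or 2, and 3 arrays a group limit every SD.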
